A study of Mus musculus with 257 samples.

Results

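Cerebella of mouse embryos carrying 2 floxed copies of Ddx3x were compared with WT cerebella of the embryonic stage E16.5 (days after conception), outside any tumour model. The comparison rests on 10 of the 257 libraries of the series, 5 labelled BD-FL-FL (called FL/FL here) and 5 labelled WT, chosen by these labels alone. In the label BD, B is read here as Blbp-Cre, a recombinase driven by the promoter of the radial glia gene Fabp7 (Blbp), and D as the floxed Ddx3x allele. FL/FL embryos are then females in which Ddx3x can be deleted in Blbp-lineage cells only, while other cells of the tissue keep both copies. The WT labels name neither the Cre nor a sex, and no strain is given. Total RNA of the cerebellum was sequenced, so each library mixes deleted and undeleted cells, and fewer cells of a type cannot be told apart from less RNA per cell. At the same age, 5 BD-FLPlus libraries (females with 1 floxed and 1 intact copy) and 5 BD-FLY libraries (males with 1 floxed copy), both with the Cre, and 5 BPtchD-FLFL with 5 BPtch libraries of the Shh background (a Ptch1 allele in every animal) were used beside them. So were 3 BCP and 5 BDCP-FLFL libraries of the Wnt background, where D again marks the floxed Ddx3x allele. In these labels C and P are read here as alleles of Ctnnb1 and Pik3ca, carried by every animal of that background. By the same reading of B, the BPtch and BCP controls carry the Cre. Later comparisons used 5 BD-FL-FL and 5 WT libraries at each of P5, P13 and P30+ (days after birth).

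Ddx3x encodes a DEAD-box RNA helicase that unwinds structured leader sequences of messenger RNAs during translation initiation and takes part in stress granules. The gene lies on the X chromosome and escapes X inactivation, and Ddx3y on the Y chromosome encodes a closely related protein. In the late embryonic cerebellum, progenitors of the ventricular zone and the rhombic lip produce Purkinje cells, inhibitory interneurons and granule neurons, and the human gene DDX3X is recurrently mutated in medulloblastoma, a tumour of this region.

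FL/FL libraries held 14099860 to 20915193 counts and WT libraries 11933207 to 23494102. Some embryos share an animal number in the labels, read here as a litter: FL/FL replicates 1 and 2 share theirs with WT replicate 4, and FL/FL replicates 3 and 4 with WT replicates 2 and 3. P-values therefore measure the spread between these libraries, some of which are littermates. WT replicate 1 and FL/FL replicate 5 share their animal numbers with embryos of the Wnt model. WT replicates 3 and 5 stood apart from the other WT libraries. Both had Y-linked transcripts, and both had the lowest shares of counts in genes spanning 100 kb or more, 17.3% and 16.3% against 18.7% to 19.7% in the other 3. The counts of called genes are given with and without them. All libraries expressed the cerebellar transcription factor gene Zic1, at 219 to 311 CPM (counts per 1e+06 of the library total) in FL/FL and 226 to 514 in WT.

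The level of Ddx3x itself was not lower in the FL/FL cerebella. Ddx3x (ENSMUSG00000000787, GRCm38 chromosome X, 13280970 to 13294052) measured 434, 379, 429.5, 429 and 447 CPM in FL/FL replicates 1 to 5. In WT replicates 1 to 5 it measured 428, 418, 387, 466 and 324 CPM. The ranges overlapped, and the lowest value of all 10 libraries was that of WT replicate 5. The difference was 0.08 ± 0.11 on the log2 scale (estimate ± standard error derived from edgeR's F statistic, edgeR adjusted p = 0.897), FL/FL at 424 ± 25.8 and WT at 404 ± 53.1 CPM (SD, n = 5 each). Without WT replicates 3 and 5 it was -0.08. The table counts reads over the whole gene and not over the floxed exons, so a shortened transcript would still be counted.

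The sex-linked genes differed inside the WT group. Xist, the RNA that silences one X chromosome in females, measured 2750, 2199, 2260, 2538 and 2090 CPM in FL/FL and 1561, 1318, 3.55, 1676 and 2.64 CPM in WT replicates 1 to 5. Ddx3y was near 0 in every FL/FL library (0 to 0.0709 CPM) and measured 0.157, 0, 50.8, 0.116 and 43.6 CPM in the WT libraries. WT replicates 3 and 5 thus carried the profile of males, and the other 3 WT libraries that of females, with Xist below every FL/FL library. Among 11 sex chromosome genes tested, the 4 called lower in FL/FL were the Y-linked Ddx3y, Kdm5d, Eif2s3y and Uty (edgeR, adjusted p = 0.0325, 0.0353, 0.0358 and 0.0473). Kdm5d, a histone demethylase gene, measured 52.4 and 64.1 CPM in WT replicates 3 and 5 and at most 0.142 CPM in the other 8 libraries. Eif2s3y, which encodes a translation initiation subunit, measured 62.3 and 100.3 CPM there and at most 0.34 elsewhere, and Uty 21.8 and 23.5 CPM and at most 0.34 elsewhere.

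No X-linked gene among the 11 sex chromosome genes tested was called. Usp9x, a deubiquitinase gene, measured 316 to 417 CPM in FL/FL and 133 to 295 in WT (0.72 ± 0.19, adjusted p = 0.104). Kdm5c, the X-linked demethylase, was at 188 ± 15.8 against 144 ± 31.1 CPM (0.40 ± 0.14, adjusted p = 0.281), Kdm6a at 0.40 ± 0.14 (adjusted p = 0.305) and Eif2s3x at 0.19 ± 0.14 (adjusted p = 0.779). WT replicates 3 and 5 had the lowest values of Kdm5c, Kdm6a and Eif2s3x among the WT libraries. The other model genes were not called either: Fabp7 at -0.29 ± 0.16, the Wnt effector gene Ctnnb1 at 0.16 ± 0.09, the kinase gene Pik3ca at 0.19 ± 0.11 and the Shh receptor gene Ptch1 at 0.00 ± 0.14. Fabp7, the source of the Cre promoter, measured 308 to 569.9 CPM in FL/FL and 349 to 661 in WT.

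**Figure D1:**
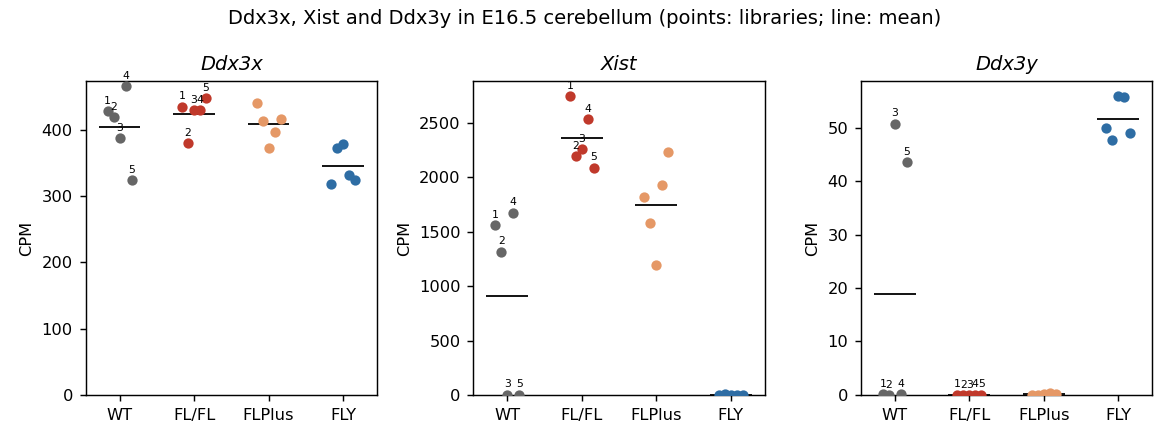
CPM of Ddx3x, Xist and Ddx3y in the 4 genotypes of the normal background at E16.5. Points are libraries, numbers are replicates of WT and FL/FL, and lines are means. Ddx3x overlaps between FL/FL and WT, and WT replicates 3 and 5 are the WT libraries with 3.55 and 2.64 CPM of Xist and with 50.8 and 43.6 CPM of Ddx3y.

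The main difference between FL/FL and WT was a set of genes with more RNA in FL/FL. Of 18552 genes tested, 71 were called higher (0.383% of the genes tested; called means a Benjamini-Hochberg adjusted p under 0.05 in edgeR's quasi-likelihood test) and 6 lower (0.0323%). In 62 of the 71, every FL/FL library lay above every WT library, a separation seen in 252 of all genes tested (1.36%) that rests on the same values as the call. Among all genes the balance was the other way, with 8131 higher and 10421 lower in FL/FL and a median of -0.03. The 71 genes sat on 18 autosomes and the X chromosome, with 9 on chromosome 9 as the highest number. This set was sensitive to single libraries: no gene of any kind was called without WT replicate 3, WT replicate 5 or FL/FL replicate 3, and without WT replicates 3 and 5 together (edgeR; 1379, 1357, 1342 and 1118 genes then had an unadjusted p under 0.05). With WT replicates 3 and 5 left out, all 71 stayed positive at an unadjusted p under 0.05, with a median of 0.59 against 0.78 for all libraries. The 71 were picked by their p in a fit that held these libraries, so the sign was largely set in advance.

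With predicted genes (Gm numbers and Rik clones) and genes under a mean log2 CPM of 1 left out, the largest rises were those of Ptar1, Nkain3 and Dgki. Ptar1 (chromosome 19, 23687429 to 23731668), which encodes a protein with prenyltransferase alpha repeats, measured 7.5, 6.39, 10.0, 7.3 and 5.4 CPM in FL/FL and 3.5, 1.17, 0.985, 1.68 and 0.298 CPM in WT replicates 1 to 5. Its groups did not overlap, with WT replicate 1 the highest and WT replicate 5 the lowest of the WT libraries. Ptar1 rose by 2.27 ± 0.45 (adjusted p = 0.0348). Nkain3, which encodes a protein that binds a subunit of the sodium pump, measured 11.8, 20.2, 30.2, 23.8 and 15.6 CPM in FL/FL and 10.5, 5.2, 2.4, 4.75 and 3.28 CPM in WT. The lowest FL/FL library lay just above the highest WT library, and the gene rose by 1.98 ± 0.41 (adjusted p = 0.0376).

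Dgki and Kalrn are signalling genes of neurons. Dgki (chromosome 6, 36846022 to 37300184), a diacylglycerol kinase gene, measured 27.9, 31.9, 36.4, 32.3 and 26.1 CPM in FL/FL and 20.6, 9.89, 8.43, 10.2 and 6.6 CPM in WT replicates 1 to 5. All FL/FL libraries lay above all WT libraries, and WT replicate 1 was well above the other 4. Dgki rose by 1.48 ± 0.27 (adjusted p = 0.0301). Kalrn (chromosome 16, 33969073 to 34573532), an exchange factor gene of dendritic spines, measured 164, 168, 197, 195 and 171 CPM in FL/FL and 119, 99.0, 77.8, 86.0 and 53.2 CPM in WT. WT replicate 5 was the lowest and WT replicate 1 the highest of its group, as in Dgki and Ptar1. Kalrn rose by 1.05 ± 0.19 (adjusted p = 0.0302).

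Atm (ENSMUSG00000034218, chromosome 9, 53439149 to 53536740), the kinase gene that signals DNA double-strand breaks, had one of the smallest p-values. It measured 43.0, 40.1, 48.5, 45.2 and 29.8 CPM in FL/FL replicates 1 to 5 and 24.4, 21.6, 19.4, 23.5 and 16.3 CPM in WT replicates 1 to 5. The groups did not overlap, and FL/FL replicate 5, of another litter, was the lowest of its group. The mean was 41.3 ± 7.14 CPM in FL/FL and 21.1 ± 3.29 in WT (SD, n = 5 each), a rise of 0.99 ± 0.16 (adjusted p = 0.028).

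Kcnq1ot1 (chromosome 7, 143203458 to 143296549), the imprinted antisense RNA of the Kcnq1 locus, measured 35.7, 30.3, 40.1, 37.2 and 30.3 CPM in FL/FL and 19.0, 19.1, 12.3, 22.2 and 17.9 CPM in WT. All FL/FL libraries lay above all WT libraries, and the difference was 0.96 ± 0.17 (adjusted p = 0.0291). It overlaps Kcnq1 on the other strand, and since the strand setting of the counting is not given in the sources used here, reads of the pair cannot be told apart. Jpx, a noncoding RNA gene beside Xist, rose by 0.86 ± 0.18 (adjusted p = 0.0404) with overlapping groups, at 7.92 to 11.2 CPM in FL/FL and 4.02 to 8.11 in WT. Jpx overlaps Ftx in the same way. The remaining named rises were Ccdc15 (1.19 ± 0.21), a coiled-coil gene, the zinc finger gene Zfp369 (0.98 ± 0.19) and Nhlrc2 (0.81 ± 0.16).

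**Figure D2:**
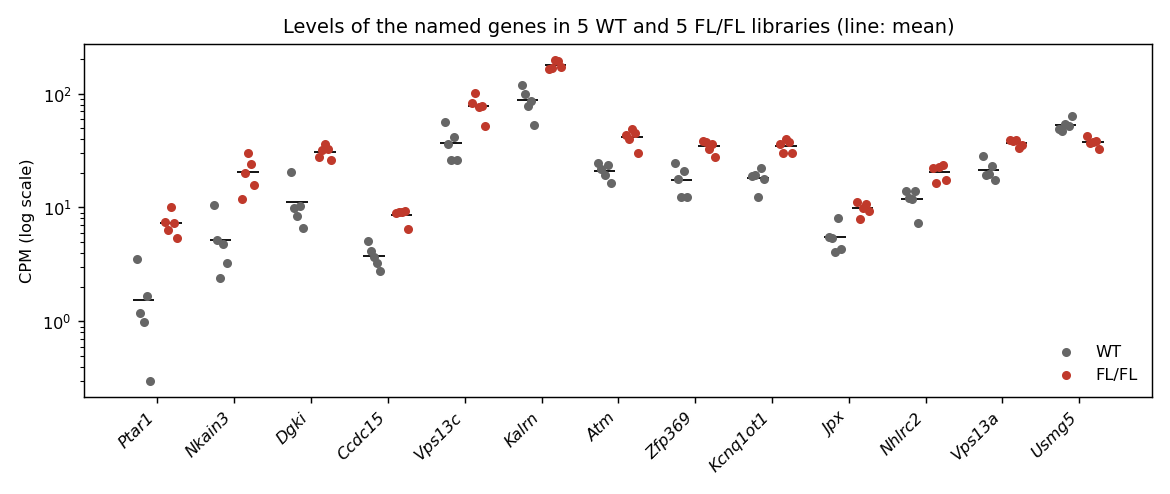
CPM on a log axis of the 12 named genes called higher in FL/FL and of Usmg5, called lower, in each of the 5 WT and 5 FL/FL libraries, with lines at the means. Groups overlap in Vps13c and Jpx only, and Ptar1 spreads most within WT, from 0.298 to 3.5 CPM.

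Genes of DNA damage kinases and very large scaffold proteins were higher as a list. Of 15 members tested, 6 were called higher and none lower, all 15 had a positive estimate and the median was 0.54, beside 0.383% called higher and a median of -0.03 over all genes tested. Over the 2716 genes above 8000 exonic bases, 44 were called higher, 77.8% were positive and the median was 0.11. The list was drawn up with earlier results of these data known, so its counts are a description and no separate support. Besides Atm the called members were Vps13c (1.07 ± 0.23), Vps13a (0.80 ± 0.14) and Vps13d (0.61 ± 0.12), which encode bridge-like proteins that move lipids between membranes, Brca2 (0.62 ± 0.12), a gene of homologous recombination, and Herc1 (0.60 ± 0.12), a giant ubiquitin ligase gene. Vps13c measured 51.4 to 100.1 CPM in FL/FL and 26.1 to 55.9 in WT. The summed level of the 15 genes was 3503, 3610, 3702, 3503 and 3186 CPM in FL/FL and 2954, 2479, 2220, 2682 and 2138 CPM in WT replicates 1 to 5, without overlap. Birc6 (0.65 ± 0.15, adjusted p = 0.0561) and Atr (0.47, adjusted p = 0.0631) missed the threshold, as did Brca1 (0.24, adjusted p = 0.751) and Ubr4 (0.24, adjusted p = 0.54). Without WT replicates 3 and 5, all 15 stayed positive with a median of 0.41 and none was called.

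Among 20 long synaptic and axonal genes, Dgki and Kalrn were called and 19 had a positive estimate, with a median of 0.18, beside 0.383% called higher and 43.8% positive over all genes tested. This list too was drawn up with earlier results of these data known. Dcc, the receptor gene of the guidance cue netrin, measured 141, 87.5, 183, 128 and 98.6 CPM in FL/FL and 70.5, 56.0, 37.3, 54.6 and 7.32 CPM in WT, without overlap, and missed the threshold (1.5 ± 0.37, adjusted p = 0.0749). Csmd3, a very long gene of a neuronal membrane protein, was at 0.72 ± 0.20 (adjusted p = 0.144). Without WT replicates 3 and 5 the list's median was -0.05, with 8 of 20 positive. Of 10 nuclear RNAs, Kcnq1ot1 was called and 5 were positive (median -0.04), against the same shares over all genes. Malat1, an abundant RNA of nuclear speckles, measured 1251, 956, 955, 988 and 981 CPM in FL/FL and 710.0, 480.2, 252, 581 and 364 CPM in WT. Its groups did not overlap, and it lay just past the threshold (1.11 ± 0.25, adjusted p = 0.0519). Airn, another imprinted antisense RNA, was at 0.69 ± 0.29 (adjusted p = 0.453).

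The other called genes, looked at after their values were seen, included many large proteins of chromatin and RNA handling. Kmt2c, a histone H3 methyltransferase gene, measured 239, 215, 242, 254 and 193 CPM in FL/FL and 144, 153, 114, 160.3 and 111 CPM in WT (0.76 ± 0.14, adjusted p = 0.0305). Other chromatin genes called higher were the methyltransferase genes Ash1l (0.59 ± 0.13) and Nsd1 (0.46 ± 0.10), the demethylase genes Kdm5a (0.53 ± 0.11) and Jmjd1c (0.49 ± 0.10), and the remodeller gene Chd6 (0.47 ± 0.10). RNA handling genes called higher were Smg1 (0.65 ± 0.14), the kinase gene of nonsense-mediated decay, Tnrc6b (0.67 ± 0.14), a microRNA effector gene, Son (0.56 ± 0.11), a splicing scaffold gene, and Sfpq (0.43 ± 0.09), a splicing factor gene. Son was the most abundant of these, at 671 to 880.1 CPM in FL/FL and 436 to 588 in WT. Genes of the centrosome and cilium were represented by Alms1 (0.78 ± 0.13), Cep350 (0.58 ± 0.13), Cep192 (0.45 ± 0.10) and Nin (0.43 ± 0.09). Htt, the huntingtin gene (0.43 ± 0.10), the Wnt co-receptor gene Lrp6 (0.42 ± 0.09) and Utp20 (0.65 ± 0.11), a gene of ribosome assembly, were also higher. These genes form no list of their own, and no theme was tested for them.

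Of the 6 genes called lower, 4 were the Y-linked genes and 2 were autosomal. Usmg5 (chromosome 19, 47083464 to 47090647), which encodes a small subunit of mitochondrial ATP synthase, measured 42.6, 37.0, 37.2, 38.0 and 32.5 CPM in FL/FL and 48.7, 47.1, 53.8, 51.5 and 63.0 CPM in WT replicates 1 to 5. Every FL/FL library lay below every WT library, with WT replicate 5 the highest. Usmg5 fell by 0.47 ± 0.09 (adjusted p = 0.0302), and the value without WT replicates 3 and 5 was -0.43. It overlaps Taf5 on the other strand. The other gene was the predicted gene Gm12405 (-1.72 ± 0.37), chosen here because it completes the 6.

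The genes called higher were long for protein-coding genes. The 49 protein-coding genes called higher had a median exonic length of 13672 bases, against 4459 over the 14883 protein-coding genes tested. Over 8000 bases of exon were present in 42 of the 49 (85.7%) and in 18% of those tested. Across all genes tested the median fold change followed exonic length: -0.14 for genes of up to 1000 bases, -0.11 up to 2000, -0.07 up to 4000, 0.00 up to 8000 and 0.11 above. Of the 2716 genes in the longest class, 77.8% were higher in FL/FL, and of the 2164 in the shortest class 28.4%. Gene span behaved alike, from -0.09 for genes of up to 10000 bases to 0.11 for those over 300000. With the size factors of DESeq2 in place of TMM the longest exonic class was at 0.12 and the shortest at -0.13. Without WT replicates 3 and 5 the exonic classes ran from -0.06 to 0.04, and the longest span class was at -0.02.

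**Figure D3:**
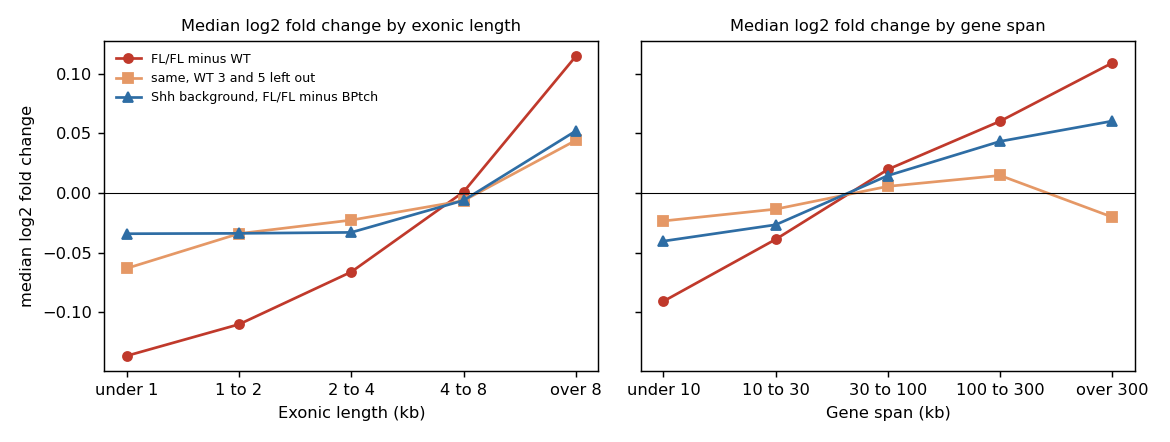
Median log2 fold change of all genes tested in 5 classes of exonic length (left) and gene span (right), in kilobases. Lines show FL/FL minus WT, the same with WT replicates 3 and 5 left out, and FL/FL minus BPtch in the Shh background; the exonic classes run from -0.14 to 0.11 in the first and from -0.06 to 0.04 in the second.

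Each library was also summarised by 7 measures. The share of counts in genes spanning 100 kb or more was 19.2% to 20.2% in FL/FL and 16.3% to 19.7% in WT (exact permutation test, two-sided, n = 5 against 5, p = 0.0238, 0.0556 adjusted over the 7). The 7 include 2 measures chosen after the data were seen, the intronic share and the one described next. Their small p-values lowered this adjusted value, so it is no planned adjustment. A measure of long against short genes, the median log2 level, relative to each gene's mean over libraries, of genes over 8000 exonic bases minus that of genes up to 1000, averaged 0.09 in FL/FL and -0.15 in WT and was chosen after the length pattern had been seen, so it has no test. It was -0.44 in WT replicate 3 and -0.27 in WT replicate 5, and -0.05 to 0.02 in the other 3 WT libraries. Total counts, the mitochondrial share, the share of the 10 most abundant genes and the ribosomal protein share had exact permutation p-values of 0.595, 0.437, 0.476 and 0.198 (n = 5 against 5). The ribosomal protein share was 0.947% to 1.10% in FL/FL and 0.940% to 1.55% in WT, with WT replicate 3 the highest. The part of RNA quality in the length pattern was not tested, as no label gives an integrity value.

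A further group with more counts in FL/FL were unannotated or noncoding transcripts inside introns. Of the 71 genes called higher, 11 carry the biotype TEC (a transcript that awaits experimental checking) and 3 the biotype sense_intronic. Genes of these biotypes that lie inside a longer gene of the same strand, with no exon in common, were then collected, after these calls had been seen. Of 172 tested, 159 were higher in FL/FL, with a median of 0.87 and 11 called higher, beside 0.383% called higher over all genes tested. Their 144 tested host genes had a median of 0.02, with 1 called, Mphosph9. Of the 172, 34 had every FL/FL library above every WT library, and none the reverse, beside 1.36% and 0.566% over all genes tested. A gene count does not tell reads of such a gene from reads of its host's unspliced RNA, so these values may hold either.

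Gm42664 (ENSMUSG00000106099, chromosome 3, 119743208 to 119746446) is the most abundant of the called examples and lies within Ptbp2 (chromosome 3, 119718742 to 119784466), with no exon in common. It measured 22.1, 28.3, 32.9, 30.8 and 24.9 CPM in FL/FL and 15.5, 5.95, 3.3, 6.72 and 1.02 CPM in WT replicates 1 to 5. It rose by 2.10 ± 0.44 (adjusted p = 0.0397). Ptbp2, a splicing regulator gene of neurons, measured 256, 243, 285, 268 and 279.6 CPM in FL/FL and 234, 303, 244, 310.4 and 234 CPM in WT, overlapping throughout (0.03 ± 0.11, adjusted p = 0.972). A second gene in Ptbp2, Gm43300, rose by 1.48 ± 0.31 (adjusted p = 0.0433).

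Gm38248, with the smallest p-value of all genes, lies in an intron of Zranb3, a DNA repair translocase gene. It measured 1.96, 2.09, 2.11, 1.92 and 1.05 CPM in FL/FL and 0.522, 0, 0.128, 0.348 and 0.128 CPM in WT, a difference of 2.96 ± 0.42 (adjusted p = 0.0137). Zranb3 was at 12.7 ± 2.66 in FL/FL and 12.4 ± 2.40 CPM in WT (0.06 ± 0.13, adjusted p = 0.956). In other pairs the host was higher too. Gm38375 (3.4 ± 0.69) lies in Xrn1, the gene of the cytoplasmic exonuclease that degrades decapped RNA, which itself was at 0.46 ± 0.11 (adjusted p = 0.0754), and Gm43339 (2.38 ± 0.52) in Mphosph9 (0.40 ± 0.09, adjusted p = 0.0473). These genes were picked for their values.

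Summed over all 930 such intronic genes in the table, the share of counts was 0.0634%, 0.0563%, 0.0666%, 0.0615% and 0.0600% in FL/FL replicates 1 to 5 and 0.0451%, 0.0381%, 0.0289%, 0.0462% and 0.0290% in WT replicates 1 to 5. The groups did not overlap in this share. It is given as a description with no test, because the class was chosen after its called members had been seen in these libraries, and the sum holds them. WT replicates 3 and 5 were again the lowest, and the other 3 WT libraries also lay below every FL/FL library. Without WT replicates 3 and 5, 178 of 207 intronic genes were positive with a median of 0.54, beside -0.03 for 161 host genes. BD-FLY libraries held 0.0511% to 0.0572% and BD-FLPlus libraries 0.0348% to 0.0644%. Of 172 intronic genes tested, 140 were higher in FL/FL than in FLPlus (median 0.27) and 132 higher than in FLY (median 0.21), with the same FL/FL libraries.

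**Figure D4:**
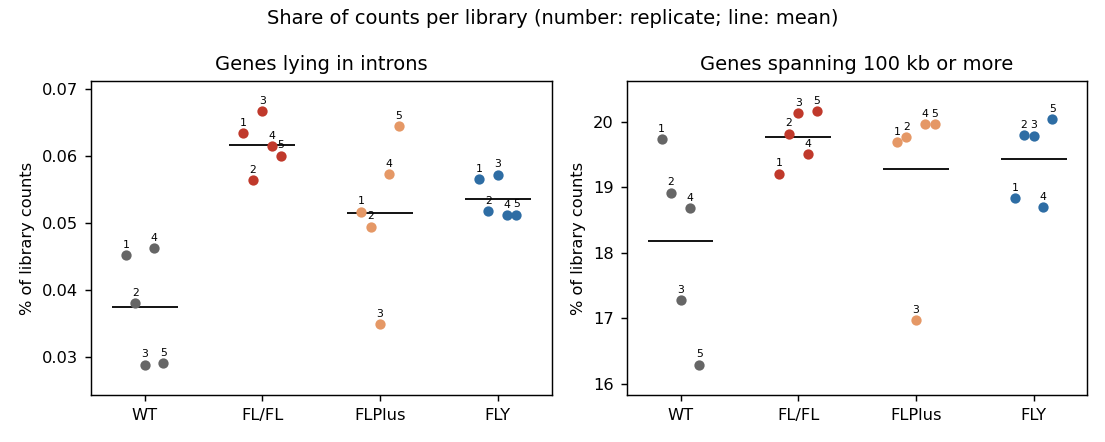
Share of library counts, in percent, in genes lying in introns of other genes (left) and in genes spanning 100 kb or more (right), for WT, FL/FL, FLPlus and FLY at E16.5. Points are libraries with their replicate numbers and lines are means; the intronic shares of FL/FL (0.0563% to 0.0666%) lie above those of WT (0.0289% to 0.0462%).

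The 71 genes were also compared among littermates. In the litter of FL/FL replicates 1 and 2 and WT replicate 4, and in that of FL/FL replicates 3 and 4 and WT replicates 2 and 3, all 71 genes had a higher mean level in FL/FL. This direction was largely set in advance. The genes were picked by their p in these libraries, and in 62 of the 71 every FL/FL library lay above every WT library. For Atm the log2 ratio of mean CPM was 0.82 in the first litter and 1.19 in the second, for Dgki 1.55 and 1.91 and for Kcnq1ot1 0.57 and 1.30. Jpx was at 0.24 and 1.14, and Gm26917, a noncoding RNA gene among the 71, at 0.18 and 2.63. With the litter as a term in the edgeR fit, 82 genes were called, all higher, and 46 of the 71 were among them. Atm was then at 1.13 (adjusted p = 0.0178) and Dgki at 1.89 (adjusted p = 0.0147), and the Y-linked genes and Usmg5 (-0.43, adjusted p = 0.119) were no longer called. The litters share libraries with the whole comparison, so these values are no separate experiment. In a fit of the shared litters alone 4 genes were called, 1 of them among the 71.

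Set against the other females with Cre, FL/FL showed no called gene. Of 18552 genes tested between FL/FL and FLPlus, 0 were called (edgeR, 951 with an unadjusted p under 0.05, and 1 called by DESeq2). This contrast and the one with WT share the FL/FL libraries. Atm was at 33.2 ± 6.26 CPM in FLPlus (SD, n = 5), with FL/FL higher by 0.30 ± 0.15 (adjusted p = 0.888), Dgki at 24.9 ± 6.04 (0.30 ± 0.26) and Ptar1 at 6.89 ± 3.09 (0.07 ± 0.41). The means of FLPlus thus lay between those of WT and FL/FL for these 3 genes. BD-FLPlus replicate 3 resembled WT replicates 3 and 5 in its share of genes spanning 100 kb or more, 17.0%, against 19.7% or more in the other FLPlus libraries, and in its intronic share of 0.0348%. Ddx3x differed by 0.04 ± 0.11 between FL/FL and FLPlus, and Xist was at 1751 ± 391 CPM in FLPlus and 2367 ± 270.4 in FL/FL.

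Between FL/FL and FLY, 6 of 18552 genes were called (0.0323%), and 5 of them lie on the sex chromosomes. Xist was higher and Ddx3y, Kdm5d, Eif2s3y and Uty were lower in FL/FL. The sixth was Gm26917 (chromosome 17), higher by 2.21 ± 0.34 (adjusted p = 0.0202). Ddx3x was at 424 CPM in FL/FL and 345 ± 28.4 in FLY, a difference of 0.30 ± 0.11 that was not called (unadjusted p = 0.0108). Atm (0.24 ± 0.15), Dgki (0.38 ± 0.26), Kalrn (0.31 ± 0.19) and Kmt2c (0.25 ± 0.14) were each within 2 standard errors of 0 and not called, with an adjusted p of 0.9995 each in edgeR.

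The same genotype was also set against its control in the Shh background at E16.5, with 10 other libraries. There 6 of 19832 genes were called (0.0303%), 4 higher and 2 lower, and Ddx3x differed by 0.03 ± 0.05. None of the 71 genes was among those called, while 70 of the 71 had a positive estimate, with a median of 0.37 against -0.01 over all genes, of which 46.7% were positive. Exonic length went with the estimate there too. Genes over 8000 exonic bases were 66.51% positive (median 0.05) and those of up to 1000 bases 41.75% (median -0.03). Ptar1 was at 1.02 ± 0.27 (adjusted p = 0.154), Dgki at 0.67 ± 0.19 (adjusted p = 0.183), Kmt2c at 0.48 ± 0.08 (adjusted p = 0.0551) and Atm at 0.45 ± 0.11 (adjusted p = 0.126). Atm measured 44.0 CPM on average in BPtchD-FLFL and 32.4 in BPtch. Of 212 intronic genes, 174 were higher, with a median of 0.44. The difference of the FL/FL effect between the backgrounds was tested as an interaction over 20144 genes, and 0 were called (edgeR, 958 with an unadjusted p under 0.05, and 1 by DESeq2). Xist was at 1035 ± 940.3 CPM in BPtch and 2094 ± 129 in BPtchD-FLFL (SD, n = 5 each), and Ddx3y was over 10 CPM in 2 of the 5 BPtch libraries and in none of the 5 others. All BPtch libraries came from a single litter, so litter and genotype cannot be told apart in that background.

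Other ages and the Wnt background, which use other libraries, gave a mixed picture for the 71 genes. The BDCP-FLFL group of the Wnt background holds littermates of WT replicate 1 and FL/FL replicate 5. At P13 in the normal background 70 of 70 tested were higher in FL/FL, with a median of 0.38 and 2 called higher (all genes tested: 48.9% positive, 0.343% called higher), and Dgki among them was at 0.86 ± 0.18 (adjusted p = 0.0403). At P5, 49 of 71 were higher, with a median of 0.13 and 3 called higher, beside 52.3% positive and 0.955% called higher over all genes. At P30+ it was 42 of 70, with a median of 0.04 and 2 called higher, beside 49.2% positive and 0.342% called higher. Atm was at -0.21 ± 0.26 at P5, 0.47 ± 0.17 at P13 and 0.02 ± 0.14 at P30+, none of them called. In the Wnt background at E16.5 the direction was the opposite, with 7 of 71 higher in FL/FL than in BCP and a median of -0.14, and none called (all genes: 52.4% positive, 0.00525% called higher). All 3 BCP libraries had Ddx3y at 46.8 to 55.5 CPM and Xist at 2.38 to 4.64 CPM, while the 5 BDCP-FLFL libraries had Xist at 2069 or more, so sex and genotype cannot be told apart in that comparison. Among the WT libraries, Ddx3y was over 10 CPM in 2 of 5 at P5, 4 of 5 at P13 and 3 of 5 at P30+, and in no FL/FL library of these ages. In the Wnt background at E16.5, Atm was at -0.20 ± 0.15, Dgki at -0.25 ± 0.16 and Malat1 at -0.14 ± 0.20. The intronic share was 0.0598% to 0.0864% in the 3 BCP control libraries, above the WT range of the normal background, and 0.0472% to 0.0691% in the 5 BDCP-FLFL libraries. Of 223 intronic genes tested in the Wnt background, 59 were higher in FL/FL, with a median of -0.28. In the normal background 122 of 167 were higher at P5 (median 0.21), 180 of 224 at P13 (0.49) and 132 of 192 at P30+ (0.21). The differences between ages and between the Wnt and normal backgrounds were not tested.

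**Figure D5:**
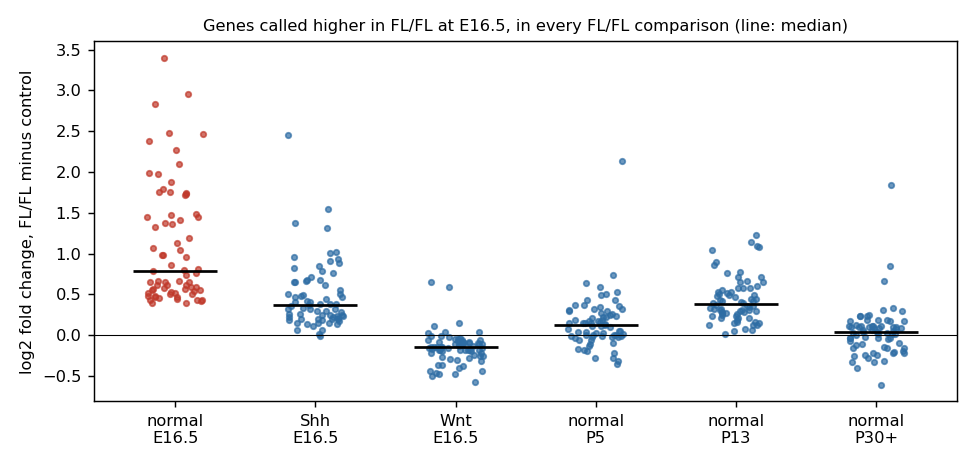
Log2 fold change, FL/FL minus control, of the 71 genes called higher at E16.5, in the normal background at E16.5 (which chose them), the Shh and Wnt backgrounds at E16.5 and the normal background at P5, P13 and P30+. Points are genes and lines are medians; the medians are 0.37 in the Shh background, -0.14 in the Wnt background and 0.38 at P13.

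Autosomal and X-linked genes of the biology around Ddx3x, from lists that hold neither Ddx3y nor Eif2s3y (both called lower), showed no called member. Among 29 DEAD-box helicase genes 13 were higher (median -0.01), among 35 translation initiation genes 9 (median -0.04) and among 16 stress granule genes 11 (median 0.02), with no member called by edgeR and 1 of each list at an unadjusted p under 0.05. Eif1b, an initiation factor gene, measured 52.4 to 62.4 CPM in FL/FL and 63.4 to 74.9 in WT without overlap (-0.25 ± 0.07, adjusted p = 0.19). Tia1, a stress granule gene, was at 0.28 ± 0.11 (adjusted p = 0.372). All 32 ribosomal protein genes had a negative estimate, with a median of -0.18 and none called, and Rpl35 had the smallest p (-0.44 ± 0.18, adjusted p = 0.404). Their summed level was 4178 to 4926 CPM in FL/FL and 4139 to 7002 in WT, with WT replicate 3 the highest and the other 4 WT libraries at 4851 or lower. Without WT replicates 3 and 5 the median was -0.07, with 25 of the 32 negative.

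Pathway lists of medulloblastoma and of cell stress held no called gene. Of 9 Shh targets 7 were higher (median 0.02), with Hhip, a feedback inhibitor, at 4.97 to 6.88 CPM in FL/FL and 2.94 to 4.54 in WT (0.65 ± 0.22, adjusted p = 0.264) and the cyclin gene Ccnd2 at 0.49 ± 0.22 (adjusted p = 0.502). Of 14 Wnt targets 7 were higher (median 0.03), of 13 p53 targets 3 (median -0.06) and of 14 proliferation genes 6 (median -0.04). Mki67, a gene of dividing cells, measured 158, 84.7, 159, 107 and 75.9 CPM in FL/FL and 66.5, 72.4, 101, 82.8 and 81.5 CPM in WT (0.55 ± 0.18, adjusted p = 0.232). Replicates 1 and 3 of FL/FL were the high ones, and the groups overlapped. Medians were -0.07 for 6 inflammasome genes, -0.06 for 12 interferon response genes, -0.05 for 11 genes of the integrated stress response and 0.02 for 9 immediate early genes. In edgeR these 8 lists had 6 members at an unadjusted p under 0.05, all with a positive estimate.

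Cell type markers of the cerebellum were not called in either direction. Rhombic lip and granule progenitor markers had 5 of 15 higher (median -0.12), granule neuron markers 3 of 12 (-0.10), unipolar brush and nuclear neuron markers 3 of 8 (-0.16) and ventricular zone progenitor markers 5 of 13 (-0.04). Purkinje cell markers had 7 of 13 higher (0.01), with Rora, a Purkinje transcription factor gene, at 0.47 ± 0.20 (adjusted p = 0.442). Inhibitory interneuron markers had 3 of 10 higher (-0.12), and Pax2, a gene of their precursors, measured 34.3, 91.6, 32.2, 38.6 and 18.4 CPM in FL/FL and 93.7, 46.1, 91.6, 46.0 and 84.1 CPM in WT (-0.72 ± 0.37, adjusted p = 0.586). FL/FL replicate 2 was as high as the highest WT libraries there. Radial glia markers had 3 of 10 higher (-0.12), with Hopx at -0.89 ± 0.34 (adjusted p = 0.372), astroglia markers 2 of 10 (-0.14) and oligodendrocyte lineage markers 2 of 11 (-0.19). Microglia markers had 1 of 12 higher (-0.25), vascular markers 5 of 12 (-0.03), blood genes 0 of 7 (-0.39) and skeletal muscle and cartilage genes 6 of 8 (0.37).

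Markers of neighbouring regions varied widely between libraries of both groups. The summed level of 19 Hox genes, which mark the caudal hindbrain and spinal cord, was 54.2, 516, 1.74, 88.8 and 3.87 CPM in FL/FL replicates 1 to 5 and 739, 103, 728, 82.9 and 207 CPM in WT replicates 1 to 5. All 17 Hox genes tested had a negative estimate (median -1.41), none was called, and 3 were positive with the litter as a term. Hoxa2 was at -1.32 ± 0.59 (adjusted p = 0.497) and Hoxa3 at -1.46 ± 0.86 (adjusted p = 0.666). Caudal hindbrain neuron markers had 11 of 14 lower (median -0.56, and -0.10 with the litter as a term). Midbrain markers had 12 of 13 higher (median 0.51, and 0.14 with the litter as a term). Their summed level was 157 to 456 CPM in FL/FL and 117 to 424 in WT.

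Choroid plexus and meningeal genes split the libraries without regard to genotype. Ttr, the transthyretin gene of the choroid plexus, measured 3801, 10.0, 13.4, 1137 and 3.63 CPM in FL/FL and 1419, 21.4, 2991, 2.72 and 4381 CPM in WT replicates 1 to 5. The list had 2 of 10 higher (median -0.44), and Prlr, the prolactin receptor gene, had its smallest p (0.71 ± 0.23, adjusted p = 0.23). Meningeal fibroblast markers had 3 of 12 higher (median -0.22), with sums of 83.9 to 2761 CPM in FL/FL and 109 to 2207 in WT. The part of these tissues in the calls was not tested.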

How the data were processed

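The authors deposited raw counts per gene for 257 libraries and 32075 genes. HISAT2, featureCounts and the build GRCm38 are named per the submitters' processing notes, with versions, annotation release and strand setting not given in the sources used here. Per the labels' protocols, RNA was extracted with Trizol. No 2 libraries of a group agreed within sampling noise (lowest chi-square per degree of freedom 10.0). The test was edgeR's (4.0.16, R 4.3.3) two-sided quasi-likelihood F-test after filterByExpr (minimum count 10, total 15) and TMM scaling. The main fit held the 20 normal-background E16.5 libraries in 4 groups, which gives 16 residual degrees of freedom for a shared estimate of the spread. The Shh comparison was fitted on the Shh-background E16.5 libraries, and the interaction on the 12 groups of that age. The Wnt comparison was fitted on all Wnt-background E16.5 libraries. Each later comparison was fitted on all normal-background libraries of its age, FLY and FLPlus included. CPM are counts per 1e+06 of the library total, without TMM factors; ± is the SD of levels or the standard error of log2 values. GENCODE M21 (GRCm38) gave lengths, biotypes and overlapping neighbours, and held 31759 of the 32075 genes and all but 106 of those tested. Exact permutation tests compared 7 library measures, with p adjusted over the 7. Of 2 chosen after the data were seen, only values are given, although their p-values entered the adjustment. The fit was tested on simulated data.

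The genotype comparison, the 35 gene lists and the rule for named genes were chosen with earlier results of these data known. The rule takes the model allele and sex chromosome genes, up to 12 largest called rises and falls (mean log2 CPM 1 or more, predicted genes left out), and up to 3 members of each list by smallest p (6 for lists with 3 or more under an unadjusted p of 0.05). The text gives those that carry a comparison. Kmt2c and the other chromatin, RNA, centrosome and single genes named with it, the intronic genes and their hosts, Atr, Brca1, Ubr4, Ttr, Gm12405 and Gm26917 were chosen after their values were seen. The alternatives comprised DESeq2 1.42.0, edgeR with DESeq2 size factors, all genes without a filter, a block for the replicate number or the litter, the 2 groups alone, 12 groups in 1 fit, the shared litters alone, the libraries of Wnt-model litters left out, and each library left out in turn. Leaving out WT replicates 3 and 5 together was added after seeing the data.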

Additional observations from a re-analysis of the deposited data

Results flagged for a closer look

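Each of 162 values, the CPM of the named genes and the library measures in the 2 groups of 5, was checked for a single library that stood apart from the other 4 of its group, by Dixon's ratio of the gap to the group's range (critical value 0.71). Chance alone marks about 1 in 20 groups, and 17 were marked here. FL/FL replicate 2 was low in Ddx3x (379.4 CPM, the others 428.7 to 446.8), Ctnnb1 (628.1, the others 752.1 to 794.1) and Kdm5c (160.8, the others 188.1 to 198.9). It was high in Pax2 (91.62, the others 18.41 to 38.58), Prlr (9.168, the others 4.962 to 5.642) and Uty (0.3395, the others 0 to 0.0709). FL/FL replicate 5 was low in Ccdc15 (6.407, the others 8.943 to 9.22), Gm38248 (1.052, the others 1.915 to 2.113) and Gm43339 (1.243, the others 1.731 to 1.915), all genes called higher in FL/FL. It was high in Slc6a3, the dopamine transporter gene of midbrain neurons (11.86, the others 0.2308 to 1.109). FL/FL replicate 1 was high in Malat1 (1251, the others 955.1 to 988.4) and Htt (218.7, the others 177.9 to 184.4).

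Among WT libraries, replicate 1 was high in Dgki (20.58 CPM, the others 6.597 to 10.2), which brought it nearest to FL/FL, and replicate 2 was low in Brca2 (12.82, the others 15.36 to 15.98). Replicate 5 was low in Sfpq (325.3, the others 368.5 to 378.9). Replicate 3 was high in Ccnd2 (204.2, the others 91.46 to 116.4) and in the share of counts in ribosomal protein genes (1.549%, the others 0.9398% to 1.104%).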

How the results depend on the processing

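The number of genes called between FL/FL and WT varied widely with the setting. Against 77 called, DESeq2 gave 246, 12 groups in 1 fit 398, the libraries of Wnt-model litters left out 228, the shared litters alone 4, the 2 groups alone 0 (edgeR, 1204 with an unadjusted p under 0.05) and WT replicates 3 and 5 left out 0 (1118). Leaving out single libraries gave 0 to 275 (FL/FL 1 and 4 each 1, FL/FL 3, WT 3 and WT 5 each 0, WT 2 15, WT 1 275). All 71 genes called higher were positive, with an unadjusted p under 0.05, in each of the 20 settings run. They had been picked by their p in these same libraries, so that sign and p were largely set in advance. The replicate block called 0 (1572 at that unadjusted p). Same-numbered libraries correlated at -0.426 to 0.0148 over 5 pairs. Among these pairs FL/FL 3 and WT 3 also share a litter, and they were at -0.255. The 6 same-litter pairs had a median of 0.073, so these correlations cannot tell whether same-numbered libraries belong together. FL/FL against FLPlus gave 1 with DESeq2 and 0 otherwise. FL/FL against FLY gave 0 with the litter as a block and 0 to 5 without single libraries, against 6. The Shh comparison gave 208 with DESeq2, 1 with the replicate block and 1 to 16 without single libraries, against 6; the interaction gave 1 with DESeq2 and 0 to 1 without single libraries. The cause of these moves was not tested.

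Among the named genes, direction turned only in genes that were not called. With WT replicates 3 and 5 left out, Ddx3x was at -0.0805, Ptch1 at -0.0703, Eif2s3x at -0.0709, Ptbp2 at -0.12 and Ttr at 0.93. In the shared litters Ddx3x was at -0.0195, Ptbp2 at -0.11, Slc6a3 at -0.17 and Ttr at 0.24. Ptch1 was at -0.0065 without the low-count filter. Ptbp2 and Slc6a3 were at -0.0345 and -0.16 with the litter as a block, and at -0.0272 and -0.0792 without the Wnt-model litters. Without single libraries Ddx3x ran from -0.0165 to 0.14, Ptch1 from -0.0687 to 0.11, Ptbp2 from -0.0469 to 0.10, Zranb3 from -0.0384 to 0.13 and Slc6a3 from -0.11 to 2.58. The share of long-span genes had an exact permutation p of 0.0714 without FL/FL 2, 3 or 5 (n = 4 against 5). The litter block could not be fitted for the Shh comparison or the interaction, since the BPtch litter holds no other group, and Y-linked genes have no value without WT 3 and 5, where both groups are near 0. Genes near 1 CPM, such as Gm38248 and Gm38375, rest on few reads at this depth.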

Other observations

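Gm26917, a noncoding RNA gene on chromosome 17, measured 69.2, 41.0, 160.3, 78.8 and 73.2 CPM in FL/FL replicates 1 to 5 and 22.6, 12.7, 25.8, 48.8 and 18.3 CPM in WT, with overlapping groups and a difference of 1.76 ± 0.33 (edgeR, adjusted p = 0.0305). It was at 28.5 ± 2.54 CPM in FLPlus, with FL/FL higher by 1.57 ± 0.33 (unadjusted p = 0.000119, adjusted p = 0.888), and at 18.3 ± 5.71 CPM in FLY. In the Shh background it was at 28.4 ± 11.2 CPM in FL/FL and 28.5 ± 10.2 in BPtch (0.02 ± 0.31). At other ages of the normal background, with other libraries, it was called higher in FL/FL at P5 (2.13 ± 0.30, edgeR adjusted p = 0.000836) and P30+ (1.85 ± 0.36, adjusted p = 0.0237), and was at 0.39 ± 0.34 at P13 (adjusted p = 0.778). These E16.5 contrasts within the normal background share the FL/FL libraries.

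Slc6a3 was at 11.9 CPM in FL/FL replicate 5 and at 0.231 to 1.27 CPM in 8 of the other 9 libraries, the ninth being WT replicate 3 at 0.214. Midbrain markers summed to 456 CPM in the same library, the highest of the 10, and Hox genes to 3.87.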
